A study of Mus musculus with 20 samples.

Results

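3T3-L1 cells kept for 28 days after the start of differentiation were compared with cells of the same series taken on days 4 and 7, to describe what a long-kept adipocyte culture expressed that a recently formed one did not. 3T3-L1 is a mouse fibroblast line whose confluent cultures turn into fat-storing cells when given the inducing mixture known as MDI, in standard use isobutylmethylxanthine, dexamethasone and insulin. The comparison used 6 of the 20 samples: day 28, day 4 and day 7, each measured once on Affymetrix array type A and once on array type B, which carry different probe sets. The remaining samples came from cells before induction, preconfluent or confluent, and from cells 6, 12 and 24 hours and 2 and 3 days after it. All groups were the same line, and the labels describe neither the care of the cultures between day 7 and day 28 nor any genetic change. No time point had a replicate on either array type. Culture age therefore cannot be told apart from any deviation of the single day 28 culture, and sizes of difference are descriptions of these samples.

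Adipocytes arise from fibroblast-like precursors under the transcription factors PPAR gamma (Pparg) and C/EBP alpha (Cebpa). In culture the precursors lose much of their actin cytoskeleton and of their collagen-rich interstitial matrix, round up around lipid droplets, and switch on genes for fat uptake, fat synthesis, glucose transport and secreted hormones such as adiponectin. A mature adipocyte also lays down a basement membrane, a sheet of laminin and type IV collagen.

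Values are linear intensities on the authors' scale. Values below a floor of 136 on array A and 156 on array B were set to that floor before log2 was taken, because much of each array lay in the noise: 45.1% of the probe sets of array A and 54.3% of those of array B were at or below the floor on day 28, against 47.3% and 54.7% on day 4 and 44.6% and 54.2% on day 7. A probe set was called higher or lower when day 28 lay at least 2-fold outside the range of days 4 and 7, and "higher", "lower", "rose" and "fell" are used of genes in that sense. The log2 difference is day 28 minus the mean log2 of days 4 and 7. A fold is that difference taken out of log2, and so a ratio with the geometric mean of days 4 and 7. A fold is written "at least" where a low value stood at the floor. It is then the smaller of that fold and the ratio with the plain mean. The ratio of 3' to 5' signal of Gapdh, a sign of RNA integrity, was 0.992 on day 28, against 1.14 on day 4 and 1.13 on day 7 on array A, and 0.773 on day 28, against 0.737 and 0.748 on array B. The same ratio of beta-actin was 1.41 on day 28, against 1.33 and 1.29 on array A, and 1.05 on day 28, against 1.02 and 0.955 on array B. The part of RNA quality in the results was not tested.

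Of 13069 probe sets, 303 (2.32%) were higher and 202 (1.55%) were lower on day 28. Array A gave 200 higher and 143 lower calls among 6529 probe sets, and array B gave 103 higher and 59 lower among 6540. With 1 probe set standing for each of 6137 named genes, 175 genes (2.85%) were higher and 124 (2.02%) lower. Days 4 and 7 also differed from each other: day 7 was at least 2-fold above day 4 at 658 probe sets and at least 2-fold below it at 467. The median log2 difference was -0.021 over the 4192 named genes above the floor on any of the 3 days. Of the higher probe sets, 104 stood at the floor on both day 4 and day 7, and of the lower ones, 81 stood at the floor on day 28.

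Day 28 was the highest of all 10 time points at 181 of the 303 higher probe sets. At the rest an earlier sample was higher still, at 63 of them before induction, at 51 in the first 24 hours and at 8 on day 2 or day 3. Of the 202 lower probe sets, 84 had their highest value of the series on day 4 or day 7, and 151 had their lowest on day 28, ties at the floor included. The size was at least 4-fold at 72 higher and 37 lower probe sets, and at least 8-fold at 21 and 5. Near the threshold, Rab5c stood 2.01-fold above the higher of the earlier days and was called, and Mmp7 stood 1.99-fold above and was not. Pias3 was called lower at 2.01-fold, and Clns1a was not at 1.99-fold.

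A second measure came from limma, fitted over all 10 time points in 5 groups, in which the lone day 28 sample was assumed to vary like the time points inside the other groups. At an adjusted p under 0.05 it called 73 probe sets higher (0.877%) and 19 lower (0.228%) of 8320 tested. Of these 92, 33 had the other 9 samples all at the floor, where the residual spread is 0 by construction. With probe sets required to pass the filter limit in at least 2 of 10 samples, limma called 18 higher and 5 lower of 7582. Adjusted p-values are therefore given below only for genes called under both filters, and they rest on a spread that includes change with time.

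**Figure D1:**
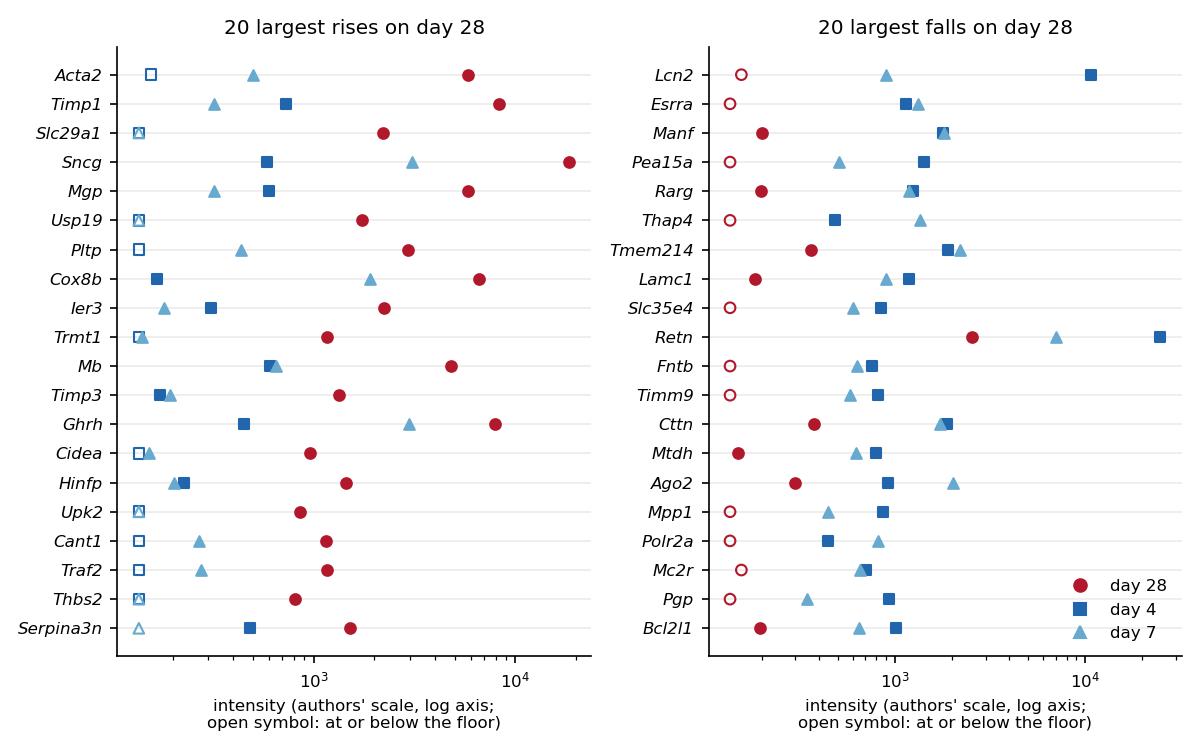
Intensity (log axis) on day 28, day 4 and day 7 of the 20 named genes with the largest rises (left) and the 20 with the largest falls (right), 1 point per sample, with open symbols at the floor. Acta2 and Timp1 lead the rises with log2 differences of 4.39 and 4.09, and Lcn2 leads the falls with -4.31.

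The actin gene Acta2 and several genes of the interstitial matrix were among the largest rises. Acta2, smooth muscle alpha-actin, had an intensity of 5850 on day 28, against -58 on day 4 and 502 on day 7, at least 17.8-fold higher. Its values varied widely from one sample to the next, with 629 at 24 hours, -98 on day 2 and 2850 on day 3. Timp1, a secreted inhibitor of matrix metalloproteinases, had 8270 on day 28, against 729 on day 4 and 322 on day 7, which was 17.1-fold higher (limma adjusted p = 0.0142). Timp3, a matrix-bound inhibitor of the same family, had 1340 on day 28, against 173 and 193, a 7.33-fold difference. All 3 genes had been high before induction: in preconfluent cells Acta2 stood at 8440, Timp1 at 7470 and Timp3 at 2150. In bulk samples such as these, more cells of one type and more RNA per cell cannot be told apart.

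Of 32 measured genes of the interstitial matrix list, 31 were above the floor, 8 were higher and 0 lower, with a median log2 difference of 0.46 over those above the floor and 0.44 over all measured. The 8 make up 25.0% of the measured genes, beside 2.85% of all named genes. They were Mgp, Thbs2, Col1a1, Pcolce, Lox, Dcn, Col12a1 and Fmod. Here and below, lists and members were chosen with earlier results of these data known, so a raised share may follow from that choice. The share over all named genes also covers many that could not be called: 4192 of 6137 were above the floor on any of the 3 days. Mgp, a small matrix protein that restrains calcification, had 5820 on day 28, against 601 and 319, and its other probe set differed by 1.58 on the log2 scale. Col1a1, the main chain of type I collagen, had 19100 on day 28, against 4990 and 5520, and day 28 lay close to the 19400 of preconfluent cells. Its other probe sets differed less, by 0.91 and 0.49 on the log2 scale. The probe sets that stand for Mgp and Col1a1 are marked as shared by a gene family. Pcolce, which promotes the trimming of procollagen, had 10200 on day 28, against 3240 and 3180. Lox, the enzyme that cross-links collagen, had 1230 on day 28, against 367 and 450. Dcn, decorin, a proteoglycan that coats collagen fibrils, had 5280 on day 28, against 2220 and 1530. Thbs2, a matricellular thrombospondin, had 812 on day 28 and lay below the floor on both earlier days, at 52 and 99. The 2 weakest members were Fmod, at 351 on day 28, and Col12a1, at 667: another probe set of each differed by 0.00 and by -0.07, so these calls rest on 1 probe set and ended with the mean over probe sets. That of Fmod also ended with the floor at 2 times its value.

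Among the 16 measured matrix proteases and their inhibitors, 13 were above the floor, with a median of 0.82, and of 0.57 over all measured. Of those measured, 4 (25.0%, beside 2.85% of all named genes) were higher and 0 lower. Beside Timp1 and Timp3 these were Serpinf1, the secreted factor PEDF, and Mmp2, a gelatinase. Serpinf1 had 4150 on day 28, against 907 and 1390, and Mmp2 had 11400 on day 28, against 5390 and 4270. Mmp2 on day 28 lay below its confluent value of 24900. The basement membrane list gave other counts. Of its 17 measured genes, 12 were above the floor, with a median of -0.21 (-0.05 over all measured), and 10 of the 12 had a negative difference. Of those measured, 0 were higher and 1 (5.88%, beside 2.02% of all named genes) was lower. The lower gene was Lamc1, laminin gamma 1, with 184 on day 28, against 1180 on day 4 and 897 on day 7. Col4a1, a type IV collagen chain, was not called, with 6310 on day 28, against 10700 and 7230.

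Of 36 measured genes of the actin cytoskeleton and adhesion list, 34 were above the floor, with 3 (8.33% of those measured, beside 2.85% of all named genes) higher and 0 lower: Acta2, Tgfb1i1 and Itgav. Tgfb1i1, the adhesion adaptor Hic-5, had 528 on day 28 and was below the floor on both earlier days, and was not called with the floor at 2 times its value. Itgav, an integrin subunit, had 798 on day 28, against 339 and 273, but a second probe set differed by 0.00 on the log2 scale, and the mean over both was not called. Of 20 measured inhibitors of adipogenesis and preadipocyte genes, 14 were above the floor, 7 with a positive and 7 with a negative difference. The median was 0.13, and 0.00 over all measured. The list held 3 higher genes (15%, beside 2.85% of all named genes) and 2 lower ones (10.0%, beside 2.02%). Thy1, a surface protein of fibroblasts, had 4240 on day 28, against 1620 and 674, and Pdgfrb, a platelet-derived growth factor receptor, had 953 on day 28, against 199 and 354. Ccnd1, cyclin D1, was called as well, at 571 on day 28 against 169 and 95. Id3 and Klf2, both regulators that hold back adipogenesis, were lower on day 28, at 128 and 115, under the floor, against 320 and 391 on day 4 and 409 and 378 on day 7. The calls of Ccnd1, Id3 and Klf2 ended with the floor at 2 times its value. Dlk1, the preadipocyte factor Pref-1, had 3140 on day 28, against 1700 and 685, and was not called. Id1, a relative of Id3, had 1330 on day 28, against 3250 and 1680, and was not called, and Pdgfra was at the floor on all 3 days.

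Slc29a1, the nucleoside transporter ENT1, followed the same course, with 2210 on day 28 and values below the floor, -10 and -247, on days 4 and 7 (at least 16.2-fold, limma adjusted p = 0.0277). It had stood at 3030 in preconfluent and 5210 in confluent cells. Pltp, a phospholipid transfer protein, had 2940 on day 28, against 101 and 437. Ier3, an immediate-early gene that limits cell death, had 2240 on day 28, against 311 and 182. Of the smooth muscle and myofibroblast markers, 8 were measured, and only Acta2 was called (12.5%, beside 2.85% of all named genes). Over the 6 above the floor, 3 differences were positive and 3 negative. Tagln had 897 on day 28, against 611 and 414. Actg2, Mylk and Cnn1, all genes of smooth muscle contraction, had log2 differences of -0.85, -1.15 and -0.55 and were not called. Myh11, a marker of mature smooth muscle, was at the floor on all 3 days. The summed intensity of these markers was 7680 on day 28, against 2390 on day 4 and 2300 on day 7, most of it Acta2.

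**Figure D2:**
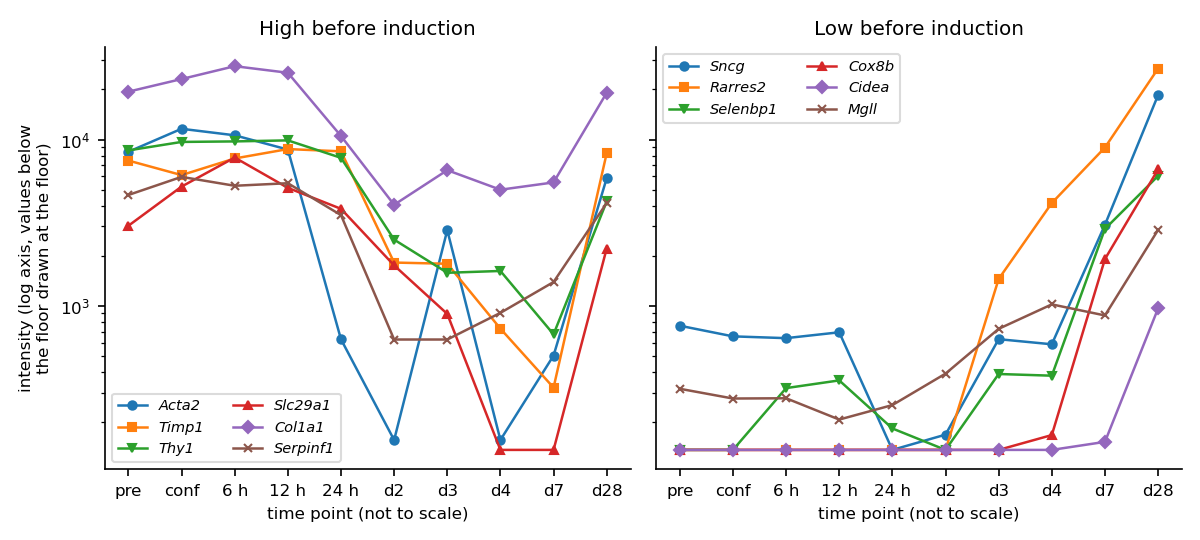
Intensity (log axis) at all 10 time points, from preconfluent (pre) and confluent (conf) cells to day 28, for 6 genes that were high before induction (left) and 6 that were low then (right), 1 sample per point. On the left, each gene was lower on days 4 and 7 and higher again on day 28, such as Timp1 at 8270 and Thy1 at 4240; on the right, each had its highest value of the series on day 28, such as Sncg at 18500.

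A second set of rises belonged to genes that were low before induction and reached their highest value on day 28. Sncg, gamma-synuclein, a protein of neurons and of fat cells, had 18500 on day 28, against 587 and 3070, a 13.8-fold difference from the geometric mean of the earlier days. Cox8b, a muscle and brown fat form of a cytochrome oxidase subunit, had 6610 on day 28, against 167 and 1910, which was 11.7-fold higher. Its only probe set is marked as shared by a gene family, so the signal may not be of Cox8b alone. Cidea, a lipid droplet protein that is abundant in brown fat and also found in white fat, had 964 on day 28, against 80 and 152. Ucp1, the uncoupling protein that defines brown fat, was measured and was at the floor on all 3 days, at 79, 62 and -44. Of the 5 measured brown fat genes, Cox8b and Cidea were the only ones called (40.0%, beside 2.85% of all named genes). Mgll, which splits monoglycerides, had 2860 on day 28, against 1020 and 875. Chosen after their values were seen, Rarres2, the adipokine chemerin, had 26700 on day 28, against 4150 and 8950, and Selenbp1, a selenium-binding protein, had 6040 on day 28, against 380 and 2900. Both lay far above their levels in preconfluent cells, where Rarres2 was at -714 and Selenbp1 at -79.

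The promoter of Cox8b (GRCm38.p6, RefSeq, chr7:140900397-140900696, minus strand) is shown from 250 bases before to 50 after the annotated start, with the letters TATAAA in capitals, which lie after that start.
Cox8b: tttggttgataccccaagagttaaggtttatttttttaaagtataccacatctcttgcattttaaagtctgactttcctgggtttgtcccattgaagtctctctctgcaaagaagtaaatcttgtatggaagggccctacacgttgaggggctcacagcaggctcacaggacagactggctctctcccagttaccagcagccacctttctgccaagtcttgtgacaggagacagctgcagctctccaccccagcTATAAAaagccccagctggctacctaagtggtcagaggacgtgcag
The letters TATAAA, read on both strands, occur in 13.6% of the 32851 promoters in the same table. A match is a description, and no factor was measured here. The window of Acta2 held no exact CArG box, a motif of serum response factor that 1.63% of all promoters hold, which says only that these letters are not in that window. That window does hold the near matches ccctatatgg and ccttgtttgg, which the exact search passes over. Near matches were not counted over all promoters. Of the 299 called genes, 239 had an entry in this table.

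Of 22 measured genes for lipid storage and secreted products, 20 were above the floor, 2 (9.09%, beside 2.85% of all named genes) were higher, Cidea and Mgll, and 1 (4.55%, beside 2.02%) was lower, Retn. Adipoq, Lpl, Fabp4, Pparg and Cebpa were chosen with their values seen, as 5 adipocyte genes that were not called. Adipoq, adiponectin, had 19900 on day 28, against 17700 on day 4 and 16500 on day 7. Lpl, lipoprotein lipase, had 36700 on day 28, against 33300 and 39300, and Fabp4, the adipocyte fatty acid binding protein, had 25900 on day 28, against 28400 and 12700. Pparg had 1180 on day 28, against 1640 and 1210, and Cebpa had 1470 on day 28, against 1700 and 1990. Retn, the hormone resistin, had 2550 on day 28, against 24900 on day 4 and 7050 on day 7, and was already lower on day 7 than on day 4.

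Metabolic lists are short, and at 2.85% and 2.02% of all named genes few calls would fall in any of them. None of 12 genes of fatty acid synthesis, 17 of fatty acid oxidation, 8 of cholesterol synthesis and 18 of glycolysis was called by the probe set that stood for it. For Acly, of the fatty acid synthesis list, that probe set had 6060 on day 28, against 3210 and 2210. Its other probe set, on array B, was called higher, with a log2 difference of 1.44. Of 34 genes of oxidative phosphorylation, Cox8b alone was higher, with a median over those above the floor of 0.10. Of 18 genes of the citric acid cycle, Pdha1, the pyruvate dehydrogenase alpha subunit, was lower, with 530 on day 28, against 1430 and 1170. Esrra, the nuclear receptor ERR alpha that regulates genes of energy metabolism, was below the floor on day 28 at -145, against 1150 and 1330, at least 9.09-fold lower (limma adjusted p = 0.0173). Insulin signalling had 1 called gene of 18, Trib3, which was lower and is described with the stress genes.

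**Figure D3:**
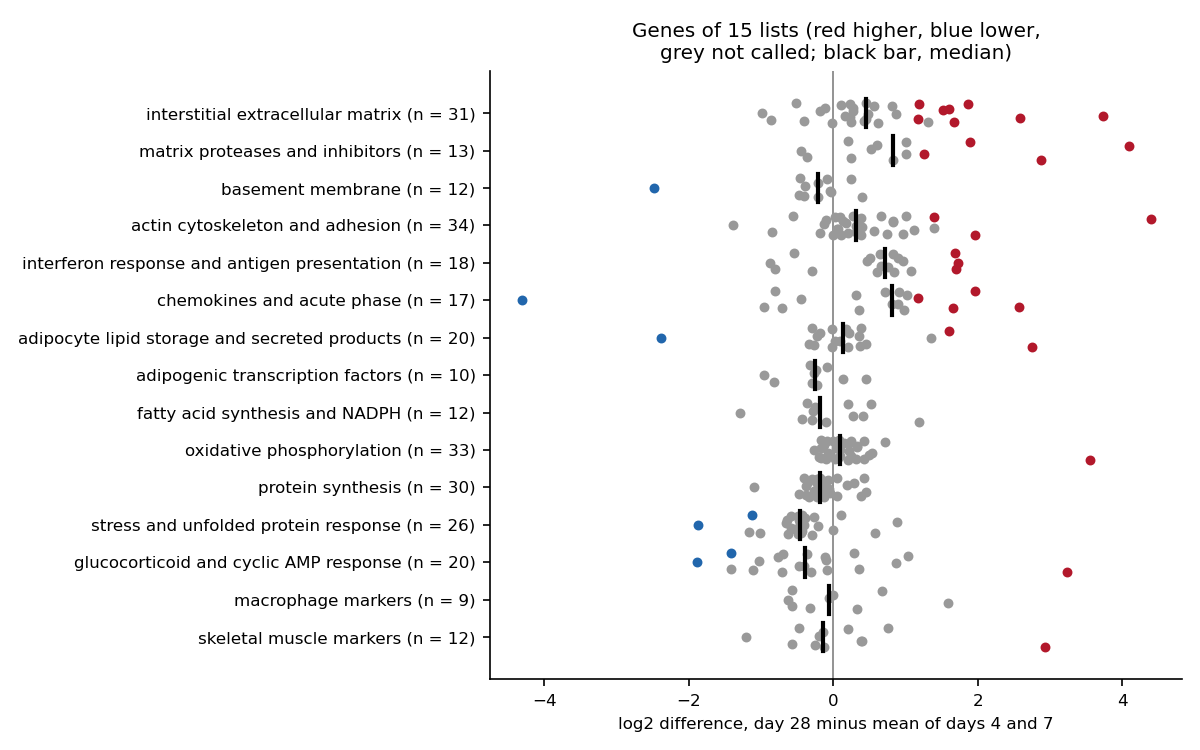
Log2 difference (day 28 minus the mean of days 4 and 7) of every gene above the floor in 15 lists, 1 point per gene, red where called higher, blue where called lower and grey where not called, with the median as a black bar. The medians of interstitial matrix (0.46), proteases (0.82) and interferon genes (0.71) lie above 0, and those of basement membrane (-0.21) and stress genes (-0.46) below it.

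Ifi27, H2-K1 and H2-D1 were higher on day 28. Of 25 measured genes of interferon response and antigen presentation, 3 (12.0%, beside 2.85% of all named genes) were higher and 0 lower. Of the 18 above the floor, 14 had a positive difference, and the median was 0.71, or 0.51 over all measured. Ifi27, an interferon-inducible gene, had 50900 on day 28, against 10500 and 22300, 3.33-fold higher, but was not called after quantile normalization. H2-K1 and H2-D1, the heavy chains of class I antigen presentation, had 7270 and 7930 on day 28, against 1610 and 1630 on day 4 and 3110 and 3710 on day 7. These 2 genes are near-identical in sequence and their probe sets are marked as shared by a family, so signal may be split between them. With the mean over its 4 probe sets H2-D1 was not called. B2m, the light chain of class I molecules, was not called, with 9280 on day 28, against 4650 and 8040.

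Of 27 measured chemokine and acute-phase genes, 17 were above the floor, 4 (14.8%, beside 2.85% of all named genes) were higher and 1 (3.7%, beside 2.02%) lower. Cxcl12, a chemokine that holds blood-forming cells in place, had 3360 on day 28, against 1470 and 772. Serpina3n, an acute-phase protease inhibitor, had 1520 on day 28, against 483 and -285, and Vcam1, an adhesion molecule, had 982 on day 28, against 197 and 325. Csf1, a growth factor for macrophages, was the weakest, at 307 on day 28 against 80 and 49, and was not called with the floor at 2 times its value. The acute-phase genes Orm1, Orm2, Hp, Cfb and Ptx3 were not called, and Saa3 was at the floor on all 3 days. Lcn2, lipocalin 2, an iron-binding acute-phase protein, moved the other way and was the largest fall. It had 110 on day 28, under the floor, against 10700 on day 4 and 896 on day 7, at least 19.8-fold lower. It was already far lower on day 7 than on day 4. Its other probe set differed by -3.61 on the log2 scale. Of 17 macrophage markers measured, 0 were called, and Csf1r and Adgre1, which define macrophages, were at the floor on all 3 days. Over the 9 above the floor, 3 differences were positive and 6 negative. Lyz2 had 1620 on day 28, against 1240 and 234, and C1qb had 897, against 473 and 675. Msr1 and Fcer1g had log2 differences of -0.63 and -0.57. The summed intensity of the macrophage markers was 6030 on day 28, against 6140 on day 4 and 4670 on day 7. Of 10 endothelial markers none was called, and Pecam1 and Cdh5 were at the floor on all 3 days. Over the 4 above the floor, 3 differences were positive and 1 negative, and Tek had 251 on day 28, against 47 and -78.

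Most stress genes had negative differences, few of them past the threshold. Of 26 measured genes of the stress and unfolded protein list, 2 (7.69%, beside 2.02% of all named genes) were lower and 0 higher, 23 had a negative difference and 3 a positive one, with a median of -0.46. Trib3, a pseudokinase that is induced when amino acids run short, had 323 on day 28, against 669 on day 4 and 2090 on day 7. Hsph1, a large chaperone, had 323 on day 28, against 659 and 748. Ddit3, the transcription factor CHOP, had 2570 on day 28, against 3270 and 8190, and was not called. Manf, a secreted protein of the endoplasmic reticulum stress response, was outside the list and had 201 on day 28, against 1800 and 1820, 9.0-fold lower (limma adjusted p = 0.0473).

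The start region of Trib3 (GRCm38.p6, RefSeq, chr2:152344011-152344310, minus strand) is shown with the letters TGATGNAA, the core of the element that ATF4 and C/EBP proteins bind, in capitals; it appears here as its reverse complement.
Trib3: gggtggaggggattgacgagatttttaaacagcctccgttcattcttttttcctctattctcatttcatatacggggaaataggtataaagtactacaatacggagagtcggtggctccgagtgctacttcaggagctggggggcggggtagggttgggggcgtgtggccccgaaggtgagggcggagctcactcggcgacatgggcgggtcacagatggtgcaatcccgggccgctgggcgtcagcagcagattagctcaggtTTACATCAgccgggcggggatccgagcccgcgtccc
These letters, on either strand, occur in 3.97% of the 32851 promoters. The next 4 genes were chosen after their values were seen and stand for no list. Mthfd2, a mitochondrial one-carbon enzyme, had 1480 on day 28, against 6630 and 4030. Pck2, the mitochondrial form of phosphoenolpyruvate carboxykinase, had 321 on day 28, against 872 and 1200. Slc1a5, a glutamine carrier, had 1860 on day 28, against 5950 and 4960. Asns, asparagine synthetase, was not called, with 2700 on day 28, against 5020 and 2510.

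No gene of protein synthesis was called. Of 33 measured genes, 30 were above the floor, 23 had a negative difference and 7 a positive one, with a median of -0.19. A further 4 genes, again chosen after their values were seen, were lower. Of these Noc4l, which takes part in ribosome assembly, had 83 on day 28, against 473 and 437, Grwd1 had 260, against 644 and 1290, and Ppan had 678, against 1400 and 1840. Srm, spermidine synthase, had 1100 on day 28, against 3890 and 2680.

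Among genes that glucocorticoids and cyclic AMP are known to induce, 24 were measured and 20 were above the floor, with a median of -0.39. Of those measured, 1 (4.17%, beside 2.85% of all named genes) was higher, Ier3, and 2 (8.33%, beside 2.02%) were lower. Mt2, the metal-binding metallothionein 2, had 4770 on day 28, against 18300 and 17000, the same as the 4770 of confluent cells. Zfp36, which shortens the life of inflammatory messages, had 318 on day 28, against 678 and 1050. The promoter of Mt2 (GRCm38.p6, RefSeq, chr8:94172368-94172667, plus strand) holds 4 matches to the core of the metal response element, TGCACNC or TGCGCNC, shown in capitals on either strand.
Mt2: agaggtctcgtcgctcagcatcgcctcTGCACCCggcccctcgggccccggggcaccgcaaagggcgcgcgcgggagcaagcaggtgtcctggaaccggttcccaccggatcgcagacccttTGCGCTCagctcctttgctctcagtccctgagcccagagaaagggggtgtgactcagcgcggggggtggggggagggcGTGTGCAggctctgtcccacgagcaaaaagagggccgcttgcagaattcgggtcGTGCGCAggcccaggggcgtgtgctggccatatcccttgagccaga
That core is common, with a match in 25.7% of the 32851 promoters.

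**Figure D4:**
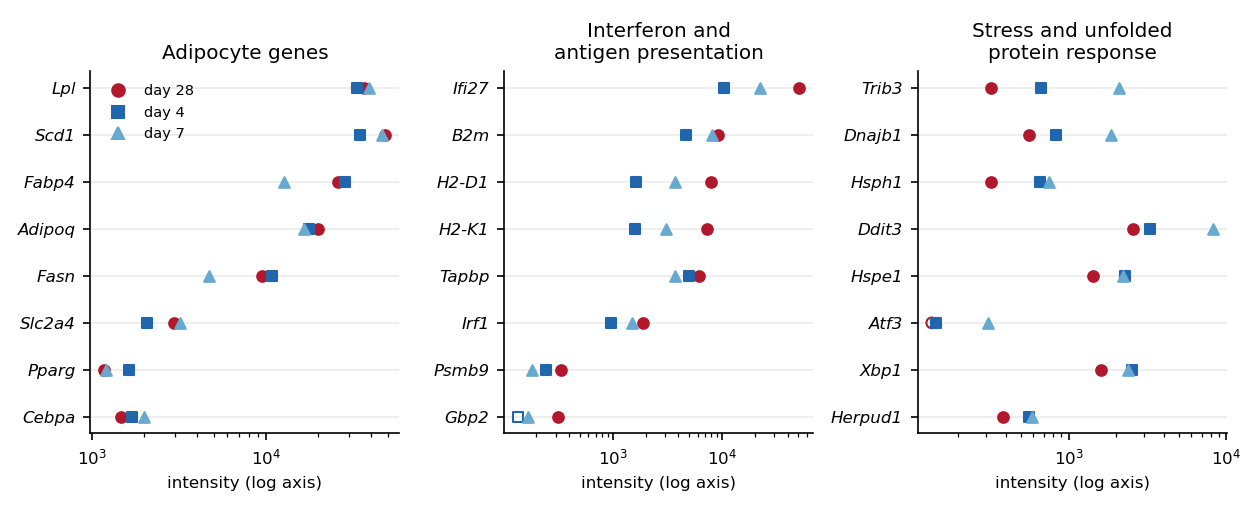
Intensity (log axis) on day 28, day 4 and day 7 of 8 adipocyte genes, of the 8 genes of the interferon and antigen presentation list with the highest day 28 values, and of the 8 stress genes with the most negative differences, 1 point per sample and open symbols at the floor. The adipocyte genes were picked by hand and none was called, so their overlap follows from the choice. The called genes Retn, Cidea and Mgll are not drawn. The 3 days overlap for drawn adipocyte genes such as Lpl, day 28 lies to the right for Ifi27, H2-D1 and H2-K1, and to the left for Trib3 and Hsph1.

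Several of the largest changes belonged to no list. Usp19, annotated as a deubiquitinase, had 1730 on day 28, against 101 and 42. Of its other samples only day 3, at 320, lay above the floor. Trmt1, an RNA methyltransferase, had 1170 on day 28, against 94 and 141 (limma adjusted p = 0.00726). Hinfp, a histone gene regulator, had 1440 on day 28, against 227 and 204 (limma adjusted p = 0.0069). Each of these is read from 1 probe set of an old annotation. Mb, myoglobin, had 4790 on day 28, against 605 and 651 (limma adjusted p = 0.0027), while its second probe set did not differ (0.00 on the log2 scale). Of the 21 skeletal muscle markers measured, Mb was the only one called (4.76%, beside 2.85% of all named genes). Myf5, Acta1 and Tnnt3 were at the floor on all 3 days. Over the 12 markers above the floor, 5 differences were positive and 7 negative. Des had 456 on day 28, against 226 and 321, and Myod1 had 29, under the floor, against 235 and 423. The gene annotated Ghrh had 7930 on day 28, against 450 and 2980.

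Of the other falls, Rarg, a retinoic acid receptor, had 198 on day 28, against 1240 and 1180, and Cttn, the actin-binding cortactin, had 378 on day 28, against 1890 and 1730. A second probe set of each differed by 0.04 and -0.41. Mc2r, the receptor for adrenocorticotropic hormone, which fat cells also carry, had 50 on day 28, under the floor, against 708 and 658. Bcl2l1, an inhibitor of cell death, had 196 on day 28, against 1010 and 649, but its 2 other probe sets differed by 0.36 and 0.00, and the mean over all 3 was not called. Where a gene had probe sets on both arrays (407 genes), 26 were called on array A. Of these, 3 were called in the same direction on array B and 0 in the opposite one. The others were not called on array B. The 3 were S100a6, Selenbp1 and Mgp, the first 2 of them named after their values were seen. Array B called 16 of the 407. Over all probe sets, array A called 3.06% higher and 2.19% lower, and array B 1.57% higher and 0.902% lower.

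Cell cycle genes gave no common direction. In this paragraph a percentage is the share of the measured list, to be read beside 2.85% higher and 2.02% lower over all named genes. Of 24 genes of DNA replication, Rpa2 was higher (4.17%) and Rfc1 lower (4.17%), and of 25 genes of mitosis none was called. Of 22 cell cycle inhibitors, Cdkn2d, an inhibitor of cyclin D kinases, was higher (4.55%), with 919 on day 28, against 448 and 371, and not after quantile normalization. Cdkn1a was not called, though its array A probe set was lower, by -2.65 on the log2 scale. In the hypoxia list, with 11 measured, Epas1 and Adm were higher (18.2%), and both calls were lost with the floor at 2 times its value. Of 31 genes of oxidative stress and detoxification, Gstm2, Gstm5 and Sod3 were higher (9.68%) and Mt2 lower (3.23%). Gstm2, a glutathione transferase, had 4300 on day 28, against 1160 and 1730, and a second probe set of Gstm5 differed by -0.13. With the mean over probe sets, Gstm5 and Sod3 were not called. Of 25 lysosome genes, Hexa and Cst3 were higher (8.0%) and Ppt1 lower (4.0%). Ncam1 was higher (9.09%) and Gap43 lower (9.09%) among 11 neural markers. The calls of Cst3 and Ncam1 ended with the mean over probe sets, and those of Ppt1 and Gap43 with the floor at 2 times its value. None of 8 bone and cartilage markers or 11 adipogenic transcription factors was called.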

How the data were processed

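RNA of 10 time points was measured on 2 array types, 1 sample each, from 10 µg of total RNA per the labels' protocols. The deposited values are linear intensity values per probe set, scaled by the authors; the labels name only the maker's manual, and the software was not given in the sources used here. Arrays were not rescaled. The floor was the 10th percentile of an array type with its sign turned, 136 and 156. The 110 control probe sets were left out. Of 13069 probe sets, 7553 had 1 symbol, 224 several and 5292 none, and only those with 1 were named. The brightest probe set stood for a gene.

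Calls by fold carry no p. limma 3.58.1 in R 4.3.3 was fitted per array type on floored log2 values, with 5 residual degrees of freedom and Benjamini-Hochberg adjustment over both. It was also run on simulated data in which the noise of a probe set was capped at the median spread. Noisier probe sets were thus made quieter than they are, so that run says nothing of how far these calls hold. Named were the 20 largest rises and 20 largest falls among called genes, the called members of 32 lists, and up to 4 further members per list. The members and lists were chosen with earlier results of these data known. With 1 array per sample, their number limits the precision.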

Additional observations from a re-analysis of the deposited data

How the results depend on the processing

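No paired analysis was possible because each time point had 1 sample per array type, so no replicate numbers link samples. The counts of probe sets outside the range of days 4 and 7 depended on the floor and on the fold asked for. With the floor at 0.5 times its value, 495 probe sets were higher and 372 lower, and with it at 2 times its value 180 and 90, against 303 and 202. At 1.5-fold the counts were 685 and 544, and at 3-fold 97 and 55. With day 28 set against 1 earlier day alone, 517 to 710 were higher and 539 to 557 lower. An alternative chosen after seeing the data, a brightest value of at least 4 times the floor, left 180 higher and 137 lower. Under quantile normalization 282 of the 303 and 191 of the 202 calls were kept, and under median scaling 298 and 189. Without probe sets that carry a family or similar mark, 230 and 167 calls were left, as 73 and 35 were of that kind. Among those left out were the probe sets that stand for Cox8b, Mgp, Col1a1, Ccnd1, Mt2, Cst3, H2-K1 and H2-D1. The limma counts of 73 higher and 19 lower became 18 and 5 with the filter in at least 2 of 10 samples, where fewer probe sets are tested. Leaving out day 4 or day 7 gave 133 to 157 higher and 66 to 118 lower, and a spread taken from days 2 to 28 only gave 51 higher and 3 lower; the cause was not tested. Of 80 named and called genes, 55 kept the call in every alternative in which they could be scored. With family probe sets left out 70 of the 80 could be scored, and with the filter in at least 2 of 10 samples 77. Only 20 could be scored with the mean over all probe sets. A gene absent from an alternative thus did not lose its call there. A lower floor or the loss of an earlier day cannot end a call by construction, so these say nothing of stability. The floor at 2 times its value ended 15 of the 80, and the mean over all probe sets of a gene ended 10 of 20. None of the 80 changed sign in the alternatives run. Values near the floor carry little signal over background.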
